A study of Bos taurus with 5 samples.

Results

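Maturation-promoting factor (MPF) is the kinase that drives a cell into meiosis or mitosis, and it consists of CDK1 bound to a B-type cyclin. The transcripts described here are 10 genes of this system: the cyclins CCNB1, CCNB2, CCNA2, CCNE1 and CCNE2, the kinases CDK1 and CDK2, the inhibitory kinase WEE1, the activating phosphatase CDC25C and the oocyte kinase MOS. They were chosen by gene name, and each name matched 1 of the 27607 genes in the deposited table.

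RNA was sequenced from pools of 100 cattle embryos (Bos taurus) developed in vitro. The low-performing group comprised 2 pools sired by bulls labelled low performing, and the high-performing group comprised 3 pools sired by bulls labelled high performing. The comparison asks how the sire's class goes with the transcripts of the early embryo. The labels define neither performance nor the number of bulls in a pool. They place the embryos at the 4-cell stage where the series text gives 2 to 4 cells. Recombinant Wnt5A is mentioned in a protocol text shared by the 5 pools, without a statement of which pools were given it. Nothing says whether the pools of a group came from separate fertilisations, so the p-values cover only how these pools differ among themselves, a spread that may be technical. The embryos are bulk pools, in which fewer cells and less RNA per cell cannot be told apart.

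An egg carries CDK1 and cyclins as protein and as stored mRNA, and the first cleavages run mostly on this inheritance. Cyclin B builds up, binds CDK1 and is destroyed at each division. Kinases of the WEE1 family hold the complex inactive by phosphorylating CDK1, and phosphatases of the CDC25 family release it. MOS, which starts a MAP kinase cascade, keeps MPF high while a vertebrate egg waits in metaphase of the second meiotic division.

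Levels are given as RPKM, reads per kilobase of gene for every 1000000 reads counted in genes, which the authors computed. The pools held 98684834 and 93659589 reads in genes in the low-performing group and 67248924 to 113100809 in the high-performing group. Oocyte and cleavage-stage markers were abundant in every pool: the summed level of 8 such genes was 16945 and 22484 RPKM in the low-performing pools and 10079 to 14173 RPKM in the high-performing pools. Most of it came from BTG4, and the 7 other genes summed to 5129 and 5541 RPKM in the low-performing pools and 4058 to 4816 RPKM in the high-performing pools. Of 8 cumulus and granulosa markers 4 passed the filter, and their sum over the list was 177 to 184 RPKM in the low-performing pools and 177 to 203 RPKM in the high-performing pools, most of it from STAR, a cholesterol transport gene. The granulosa genes AMH, FSHR, FOXL2 and CYP19A1 stayed under 0.434 RPKM in all 5 pools. HAS2 was lower in the low-performing pools without overlap, at 22.4 and 15.4 RPKM, against 22.9 to 29.0 RPKM in the high-performing pools (log2 fold change -0.47; limma, adjusted p = 0.125), and so was INHBA (log2 fold change -0.37; limma, adjusted p = 0.155). For PTX3 and STAR, which also passed the filter, the groups overlapped, at log2 fold changes of 0.06 and -0.03. None of 6 sperm markers passed the filter, and of 4 blood markers HBB stood at 0 and PTPRC at no more than 0.0505 RPKM. CSF1R had 14.4 to 16.9 RPKM over the 5 pools, with overlap. CD3E was higher in the low-performing pools without overlap, at 2.30 and 2.002 RPKM, against 1.008 to 1.81 RPKM in the high-performing pools (log2 fold change 0.37; limma, adjusted p = 0.156). Of all genes tested, 29.3% were lower and 29.4% higher in the low-performing pools without overlap. The part of these markers in the results was not tested.

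The 10 transcripts spanned more than 3 orders of magnitude, and their order was nearly the same in each pool. CCNB1 and MOS lay highest, followed by CCNA2 and CCNB2, then CDC25C, CDK2 and CDK1, then CCNE1 and CCNE2, with WEE1 lowest. Neighbours in this order did not overlap over the 5 pools except for 2 pairs. CCNB1 exceeded MOS in 3 of 5 pools, and CCNA2 exceeded CCNB2 in 4 of 5. CCNB1 stood above 99.7% of the 12448 genes tested in every pool. The smallest read number behind a member was 63, for WEE1 in high-performing pool 2, and the largest was 231378, for CCNB1 in high-performing pool 1. Errors worked out from read numbers cover counting error only, and they may be too small, since PCR copies were not told apart.

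**Figure D1:**
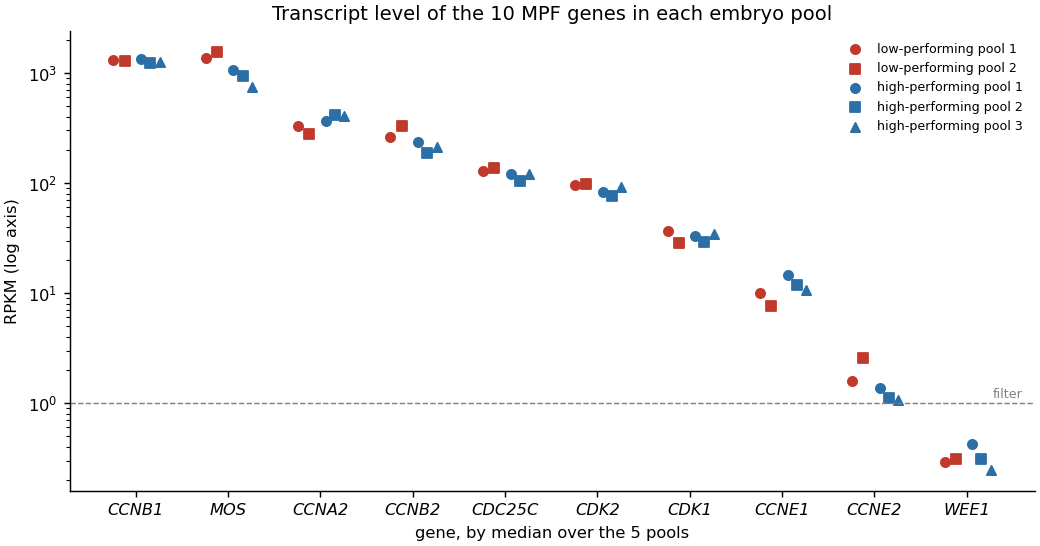
RPKM of the 10 MPF genes (vertical log axis) in the 2 low-performing pools (red) and the 3 high-performing pools (blue), 1 point per pool, genes ordered by their median. CCNB1 lies between 1244 and 1348 RPKM in all 5 pools, while both low-performing points of MOS lie above its 3 high-performing points, and WEE1 alone lies under the dashed line at 1 RPKM, the filter of the test.

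The sire groups were compared with limma on log2(RPKM + 1), a scale that compresses the changes of weakly detected genes, over all 12448 genes that reached 1 RPKM in at least 2 pools. Each fold change is that of the low-performing over the high-performing pools, so a positive value is higher in the low-performing group. Of the 10 members 9 were tested, and WEE1 was under the filter. None passed at an adjusted p under 0.05 (Benjamini-Hochberg over all genes tested), and the same held for all genes, with 0% called by limma. At an unadjusted p under 0.05 limma gave 5 of the 9 members, against 34.9% of all genes tested, and limma voom on reads worked out from RPKM also called 0 genes after adjustment. For 7 of the 9 the pools did not overlap between the groups, against 58.7% of all genes tested. Whether the share of so few members differs from that of all genes was not tested. With low-performing pool 2, high-performing pool 2 or high-performing pool 3 left out, 1 member was at an unadjusted p under 0.05, against 14.5%, 18.5% and 20.1% of all genes in that order. With no filter it was 2 members, against 14.2% of all genes. With quantile normalization and with pool weights it was 3 members each, against 36.7% and 28.4% of all genes. The median log2 fold change was 0.20 over the 9 members and -0.03 over all genes tested, and the members' median was 0.11 with no filter or at a mean of at least 5 RPKM, 0.089 with quantile normalization and 0.13 without high-performing pool 2.

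CCNB1 encodes cyclin B1, the main partner of CDK1 at entry into mitosis. Its gene lies on chromosome 20 (10507979 to 10517702, minus strand, ARS-UCD1.2 build, as for all positions here) in 9 exon blocks. CCNB1 had 1298 and 1289 RPKM in low-performing pools 1 and 2, against 1348, 1244 and 1254 RPKM in high-performing pools 1, 2 and 3. Both low-performing values lay inside the high-performing range. The low-performing mean was 1293 ± 6.02 RPKM (SD, n = 2), and the high-performing mean was 1282 ± 57.1 RPKM (SD, n = 3). The log2 fold change was 0.01 ± 0.15 (SE; 95% interval -0.33 to 0.36; limma, adjusted p = 0.954). It stood at -0.38 with quantile normalization and at -0.13 after correction for gene length.

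CCNB2 encodes cyclin B2, the second B-type partner of CDK1, on chromosome 10 (51184626 to 51209368, minus strand). CCNB2 had 264 and 332 RPKM in low-performing pools 1 and 2, against 236, 186 and 213 RPKM in high-performing pools 1, 2 and 3. Both low-performing pools exceeded all high-performing pools, and low-performing pool 2 was the highest. CCNB2 had a log2 fold change of 0.49 ± 0.17 (SE; limma, adjusted p = 0.1002). With low-performing pool 1 left out it was 0.66 with an adjusted p of 0.0228 in limma, with low-performing pool 2 left out 0.33 with one of 0.400, and with quantile normalization 0.26 with one of 0.201. For CCNB2 over all alternatives the adjusted p ran between 0.0228 and 0.465.

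The share of CCNB2 among the B-type cyclins did not overlap between the groups. CCNB2 made up 16.9% and 20.5% of the summed CCNB1 and CCNB2 level in low-performing pools 1 and 2, against 14.9%, 13.0% and 14.5% in high-performing pools 1, 2 and 3. A ratio within a pool does not depend on the scaling between pools. The log2 ratios tested here are of RPKM + 1, so those of weakly detected genes are compressed. On that scale the log2 ratio of CCNB1 to CCNB2 averaged 2.12 ± 0.24 over low-performing pools (SD, n = 2) and 2.60 ± 0.12 over high-performing pools (SD, n = 3), a difference of -0.48 (exact two-sided permutation test, p = 0.1, adjusted p = 0.25 over 5 pairs). With 10 splits of the pools the smallest p this test can give is 0.1. The third B-type cyclin, CCNB3, which acts in meiosis in mouse oocytes, had 90.6 and 67.2 RPKM in low-performing pools 1 and 2, against 86.7, 97.6 and 107 RPKM in high-performing pools 1, 2 and 3, with overlap.

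CCNA2 encodes cyclin A2, which binds CDK2 in S phase and CDK1 towards mitosis, on chromosome 6 (3425574 to 3431686, plus strand). CCNA2 had 330 and 277 RPKM in low-performing pools 1 and 2, against 362, 413 and 410 RPKM in high-performing pools 1, 2 and 3. The groups did not overlap, and here the low-performing pools were the lower ones. For CCNA2 this gave a log2 fold change of -0.38 ± 0.15 (SE; limma, adjusted p = 0.123). With low-performing pool 1 left out it was -0.51 with an adjusted p of 0.0344 in limma, with low-performing pool 2 left out -0.26 with one of 0.438, and with quantile normalization -0.62 with one of 0.088. For CCNA2 over all alternatives the adjusted p ran between 0.0344 and 0.661. After correction for gene length it was -0.44.

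CCNA2 and CCNB2 lay on opposite sides of 0 by amounts that nearly cancelled in the sum of cyclins. The 5 cyclins added up to 1903 and 1908 RPKM in the low-performing pools, against 1961, 1856 and 1889 RPKM in the high-performing pools. The ratio of CCNA2 to CCNB2, a measure chosen after the values were seen and so given with no test, was 1.25 and 0.832 in low-performing pools 1 and 2 and 1.54, 2.22 and 1.92 in high-performing pools 1, 2 and 3. In low-performing pool 2 CCNB2 stood above CCNA2, which was so in none of the other 4 pools.

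The E-type cyclins, which activate CDK2 at the start of DNA replication, were a minor part of the cyclin transcripts at 0.529% to 0.807% of the 5-cyclin sum. CCNE1, on chromosome 18 (40424330 to 40434833, plus strand), had 10.03 and 7.55 RPKM in low-performing pools 1 and 2, against 14.5, 11.8 and 10.5 RPKM in high-performing pools 1, 2 and 3. The low-performing pools were the lower ones, by a narrow gap between low-performing pool 1 and high-performing pool 3. limma put the log2 fold change of CCNE1 at -0.44 ± 0.18 (SE; limma, adjusted p = 0.134). With low-performing pool 1 left out it was -0.62 with an adjusted p of 0.035 in limma, and with low-performing pool 2 left out -0.26 with one of 0.513. For CCNE1 over all alternatives the adjusted p ran between 0.035 and 0.513.

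CCNE2, on chromosome 14 (69448183 to 69460811, plus strand), lay the other way. CCNE2 had 1.58 and 2.55 RPKM in low-performing pools 1 and 2, from 411 and 627 reads. In high-performing pools 1, 2 and 3 it had 1.37, 1.103 and 1.06 RPKM, from 407, 195 and 251 reads. The groups did not overlap, with low-performing pool 2 far above the other pools. limma put the log2 fold change of CCNE2 at 0.48 ± 0.16 (SE; limma, adjusted p = 0.0989), 0.73 with a pseudocount of 0.1 and 0.76 with limma voom, as its values are close to the pseudocount of 1. With low-performing pool 1 left out it was 0.71 with an adjusted p of 0.0126 in limma, and with low-performing pool 2 left out 0.25 with one of 0.459. For CCNE2 over all alternatives the adjusted p ran between 0.0126 and 0.459. The authors' deposited table gives CCNE2 a log2 fold change of 0.81 with an FDR of 0.0533.

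CCNE1 lay above CCNE2 in every pool, and the share of CCNE2 did not overlap between the groups. CCNE2 made up 13.6% and 25.2% of the summed CCNE1 and CCNE2 level in low-performing pools 1 and 2, against 8.65%, 8.55% and 9.13% in high-performing pools 1, 2 and 3. The high-performing pools lay close together in this share and the low-performing pools far apart. The log2 ratio of CCNE1 to CCNE2, taken on RPKM + 1 and so smaller than that of the levels behind these shares, averaged 1.68 ± 0.58 over low-performing pools (SD, n = 2) and 2.60 ± 0.11 over high-performing pools (SD, n = 3), a difference of -0.92 (exact two-sided permutation test, p = 0.1, adjusted p = 0.25 over 5 pairs). That difference was -1.21 with a pseudocount of 0.1, -0.51 without low-performing pool 2 and -1.33 without low-performing pool 1.

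**Figure D2:**
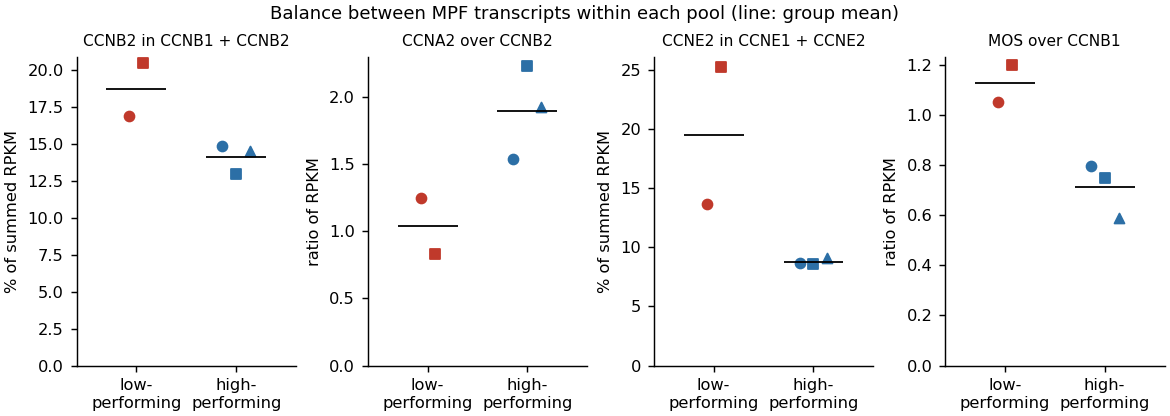
Share or ratio of RPKM between pairs of MPF transcripts within each pool, from 0, in the low-performing pools (red, left) and the high-performing pools (blue, right), with a line at each group mean and marker shapes for pools 1 (circle), 2 (square) and 3 (triangle). The CCNE2 share is 13.6% and 25.2% in the low-performing pools against 8.55% to 9.13% in the high-performing pools. The groups do not overlap in any of the 4 panels, but CCNA2 over CCNB2 and MOS over CCNB1 were chosen after the values were seen. Of the ratios tested, CCNB1 to CDK1 and CDK1 to CDK2 overlapped, WEE1 to CDC25C did not, and none of these is drawn. Among single genes, 58.7% of all tested did not overlap.

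CDK1, the catalytic subunit of MPF, lies on chromosome 28 (16488142 to 16582565, plus strand). CDK1 had 36.3 and 28.3 RPKM in low-performing pools 1 and 2, against 33.1, 28.8 and 34.6 RPKM in high-performing pools 1, 2 and 3. The low-performing pools were the highest and the lowest of all 5. The log2 fold change was -0.00075 ± 0.16 (SE; 95% interval -0.37 to 0.37; limma, adjusted p = 0.998), 0.17 with low-performing pool 2 left out and -0.17 with pool 1 left out.

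The B-type cyclin transcripts CCNB1 and CCNB2 were far more abundant per length than the transcript of CDK1, the kinase they pair with. CCNE1 and CCNE2 lay below both CDK1 and CDK2 in every pool. CCNB1 exceeded CDK1 by 35.8 and 45.5 times in low-performing pools 1 and 2, against 40.7, 43.2 and 36.3 times in high-performing pools 1, 2 and 3. The log2 ratio (RPKM + 1) differed by 0.01 between the groups (exact two-sided permutation test, p = 1). The deposited gene model of CDK1 ends in an exon block of 1015 bases, and the longest gap between its blocks is 79607 bases. If no read fell in that last block, the per-length level would be 1.725 times the deposited one, at 48.9 to 62.6 RPKM.

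CDK2, the kinase of DNA replication and a partner of cyclins E and A, lies on chromosome 5 (57339030 to 57344446, minus strand). CDK2 had 94.9 and 97.3 RPKM in low-performing pools 1 and 2, against 83.3, 75.9 and 92.6 RPKM in high-performing pools 1, 2 and 3. The groups did not overlap, but low-performing pool 1 and high-performing pool 3 were close. CDK2 had a log2 fold change of 0.20 ± 0.14 (SE; limma, adjusted p = 0.326), which was 0.13 without high-performing pool 2 and 0.089 with quantile normalization. CDK2 stood above CDK1 in every pool, also if the last exon block of CDK1 held no reads. The exons of CDK2 share 84 bases with those of PMEL on the opposite strand, a gene at 3.51 and 3.86 RPKM in the low-performing pools and 3.07 to 3.34 RPKM in the high-performing pools. The log2 ratio of CDK1 to CDK2 (RPKM + 1) was -1.36 and -1.75 in low-performing pools 1 and 2, against -1.31, -1.37 and -1.40 in high-performing pools 1, 2 and 3 (exact two-sided permutation test, p = 0.3, adjusted p = 0.375 over 5 pairs), with overlap.

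WEE1, the kinase that inhibits CDK1 in somatic cells, was barely detected. WEE1, on chromosome 15 (43077354 to 43091213, minus strand), had 0.29 and 0.313 RPKM in low-performing pools 1 and 2, from 86 and 88 reads. In high-performing pools 1, 2 and 3 it had 0.421, 0.312 and 0.247 RPKM, from 143, 63 and 67 reads. The low-performing values lay inside the high-performing range, and the difference of means on the log2 scale was -0.03. Its relative WEE2, known as the oocyte form of this kinase in mouse, had 485 and 456 RPKM in low-performing pools 1 and 2, against 555, 414 and 456 RPKM in high-performing pools 1, 2 and 3. WEE2 exceeded WEE1 by 1459 to 1671 times in the low-performing pools and by 1320 to 1846 times in the high-performing pools. The log2 fold change of WEE2 was -0.0046 ± 0.17 (SE; limma, adjusted p = 0.986), and -0.29 with quantile normalization.

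CDC25C, a phosphatase that removes the inhibitory phosphates from CDK1, lies on chromosome 7 (49701226 to 49731890, minus strand). CDC25C had 129 and 138 RPKM in low-performing pools 1 and 2, against 120, 105 and 121 RPKM in high-performing pools 1, 2 and 3. Both low-performing pools exceeded all high-performing pools, by a margin of the order of the high-performing spread. CDC25C had a log2 fold change of 0.21 ± 0.13 (SE; limma, adjusted p = 0.28), and 0.10 with quantile normalization. The log2 ratio of WEE1 to CDC25C (RPKM + 1) averaged -6.69 ± 0.05 over low-performing pools (SD, n = 2) and -6.45 ± 0.14 over high-performing pools (SD, n = 3) (exact two-sided permutation test, p = 0.2, adjusted p = 0.333 over 5 pairs). In that ratio the pseudocount of 1 stands for most of the WEE1 term. WEE2 exceeded CDC25C by 3.75 and 3.31 times in low-performing pools 1 and 2, against 4.62, 3.96 and 3.78 times in high-performing pools 1, 2 and 3. The other CDC25 phosphatases lay on the other side of 0. CDC25B had 47.8 and 25.3 RPKM in low-performing pools 1 and 2, against 49.7, 59.5 and 68.9 RPKM in high-performing pools 1, 2 and 3, a log2 fold change of -0.74 ± 0.27 (SE; limma, adjusted p = 0.108). CDC25A had a log2 fold change of -0.41 ± 0.19 (SE; limma, adjusted p = 0.172), or -0.17 with the length trend removed, with overlap between the groups.

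MOS, the kinase upstream of MAP kinase in the egg, had the largest log2 fold change in size of the 9 members tested, except that CCNE2 passed it with a pseudocount of 0.1 and with limma voom, CCNE2, CCNE1 and CCNA2 after correction for gene length, and these genes and CCNB1 with quantile normalization. It is a single exon of 1023 bases on chromosome 14 (23299177 to 23300199, minus strand). MOS had 1365 and 1546 RPKM in low-performing pools 1 and 2, against 1072, 930 and 739 RPKM in high-performing pools 1, 2 and 3. Both low-performing pools lay above all high-performing pools, and the high-performing pools differed widely among themselves. The low-performing mean was 1455 ± 128 RPKM (SD, n = 2), and the high-performing mean was 914 ± 167 RPKM (SD, n = 3). The log2 fold change was 0.68 ± 0.20 (SE; 95% interval 0.23 to 1.14; limma, adjusted p = 0.0839). With low-performing pool 1 left out it was 0.77 with an adjusted p of 0.037 in limma, with low-performing pool 2 left out 0.60 with one of 0.331, and with quantile normalization 0.36 with one of 0.234. For MOS over all alternatives the adjusted p ran between 0.037 and 0.541.

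Short genes as a whole stood higher in the low-performing pools, and MOS is the shortest member. The 979 genes within 0.25 log2 units of its length lay around a median of 0.40 on the same log2 scale, and 74.2% of them lay below MOS. After removal of each pool's trend over gene length the value for MOS was 0.36. The same correction gave 0.35 for CCNB2 and 0.58 for CCNE2. The summed oocyte and cleavage-stage markers were also above every high-performing pool in low-performing pools 1 and 2. Most of that sum came from BTG4, a gene of 669 bases, whose log2 fold change of 0.90 was 0.46 with the length trend removed. Before correction 7 of the 8 markers lay above 0, and NLRP5 stood at -0.09 with overlap. With the length trend removed the 8 markers ran from -0.02 for BMP15 to 0.89 for OOEP. With quantile normalization they ran from -0.25 for KPNA7 to 0.99 for OOEP. The part of the markers in the value of MOS was not tested.

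MOS lay above CCNB1 in the low-performing pools and below it in the high-performing pools. It stood at 1.05 and 1.199 times the CCNB1 level in low-performing pools 1 and 2, against 0.795, 0.747 and 0.590 times in high-performing pools 1, 2 and 3. This ratio was chosen after the values were seen and has no test. MOS was the most abundant of the 10 transcripts in both low-performing pools, and CCNB1 in all 3 high-performing pools.

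In the authors' deposited table MOS is the only member with an FDR under 0.05. Its log2 fold change there is 0.67 with an FDR of 0.00202, and 7.95% of the 27607 genes in that table have an FDR under 0.05. The authors' deposited table gives CCNB2 a log2 fold change of 0.50 with an FDR of 0.0971, CCNA2 one of -0.38 with an FDR of 0.169 and CCNE1 one of -0.48 with an FDR of 0.175. For CCNB1, CDK1 and WEE1 the FDR in the authors' deposited table is 1. These values and those of limma come from the same 5 pools and are not independent.

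**Figure D3:**
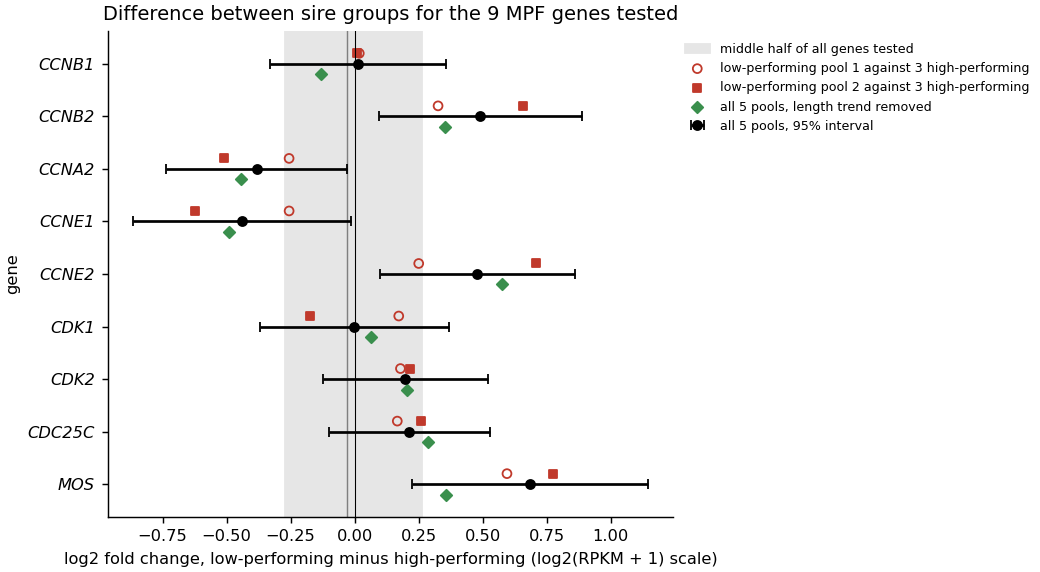
Log2 fold change (low-performing minus high-performing, log2(RPKM + 1) scale) of the 9 MPF genes tested, with the 95% interval of limma on all 5 pools (black), each low-performing pool alone against the 3 high-performing pools (red), and the value with the length trend removed (green), over a grey band for the middle of all genes tested, from -0.27 to 0.26. MOS, CCNB2 and CCNE2 lie right of the band and CCNA2 and CCNE1 left of it, CCNB1 and CDK1 lie at 0, and for CDK1 the low-performing pools fall on opposite sides of 0.

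Low-performing pool 2 was the pool farther from the high-performing mean for all 7 members whose groups did not overlap. The same was so for 91.9% of the 7305 such genes among all tested, so the members do not stand out from the other genes in this. For MOS and CDK2 the low-performing pools were close, at 0.60 and 0.77 for MOS and at 0.18 and 0.22 for CDK2 (log2, pools 1 and 2 each against the high-performing mean). For CCNE2 they were far apart, at 0.25 and 0.71. Counting error, with PCR copies not told apart, was at most 7.16% of the value in any pool for the 9 members tested. For all but CCNE1 and CCNE2 it was at most 1.46%.

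Around the 10 genes, 50 further cyclins and regulators of MPF were listed, of which 48 were matched and 45 tested. Their median log2 fold change was -0.16, against -0.03 over all genes tested, and 17 of the 45 lay above 0. None passed limma at an adjusted p under 0.05 on all 5 pools with no replicate block. Without low-performing pool 1, 26 of the 45 passed, against 43.7% of all genes tested. With the replicate number as a block, a fit in which high-performing pool 3 has no partner and adds nothing to the difference, 2 passed, against 6.69% of all genes. At an unadjusted p under 0.05 limma gave 6 genes above 0 and 12 below, against 19% and 15.9% of all genes tested. These numbers were 8 and 21 without low-performing pool 1, 4 and 4 without low-performing pool 2, 3 and 5 without high-performing pool 2, and 5 and 5 without high-performing pool 3, where in that order 53.2%, 14.5%, 18.5% and 20.1% of all genes were at an unadjusted p under 0.05 in either direction. The list median stood at -0.08 when low-performing pool 2 was left out, at -0.25 when pool 1 was and at -0.29 with quantile normalization. The FDR deposited by the authors was under 0.05 for 8 of the 45. Over all 27607 genes, which include those under the filter, this was so for 7.95%. These shares are not on like sets of genes, and the share among genes past the filter is not given here. Among the 8 were CKS1B (FDR 1.92e-06), PRKACA (0.00133), PPP2R2A (0.00891), CDKN1B (0.0141) and CCNI (0.0143), described below. That FDR and the limma values come from the same 5 pools and are not independent.

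Proteins that bind or activate CDKs had the highest list median, at 0.60 over 6 genes, and for 5 of the 6 both low-performing pools lay over all high-performing ones, against 29.4% of all genes tested. CKS1B, a small protein that docks CDK complexes to their substrates, had 3969 and 7841 RPKM in low-performing pools 1 and 2, against 2670, 1678 and 2139 RPKM in high-performing pools 1, 2 and 3. Its log2 fold change was 1.39 ± 0.33 (SE; limma, adjusted p = 0.0829), and 0.86 with the length trend removed. The gene is 372 bases long. SPDYC, of the Speedy family of CDK activators, was the only member of the list below 0, at -0.60 ± 0.25 (SE; limma, adjusted p = 0.134), or -0.90 with the length trend removed. SPDYC had 85.7 and 47.5 RPKM in low-performing pools 1 and 2, against 84.4 to 105 RPKM in the high-performing pools, with overlap. The median length of these 6 genes was 1180 bases, and with the length trend removed their median was 0.39. It was 0.42 without low-performing pool 2.

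Downstream of MOS, the MAP kinase arm lay on the other side of 0. All 6 tested genes were below 0 on all 5 pools, and RPS6KA1 stood above 0 with the length trend removed, at 0.11, and without low-performing pool 2, at 0.036. Their median was -0.37, and for 4 of the 6 both low-performing pools lay under all high-performing ones, against 29.3% of all genes tested. RPS6KA1, a kinase that MAP kinases activate, had the smallest difference of the list at -0.08 ± 0.13 (SE). These genes are longer, with a median of 2672 bases, and with the length trend removed their median was -0.21. It stood at -0.11 when low-performing pool 2 was left out and at -0.66 when pool 1 was.

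Greatwall and PP2A, the kinase and the phosphatase that oppose each other over MPF substrates, had a median of -0.23 over 9 genes, which was -0.12 without low-performing pool 2, -0.15 with the length trend removed and -0.36 with quantile normalization. For 5 of them both low-performing pools lay under all high-performing ones, against 29.3% of all genes tested, and for 2 above, against 29.4%. PPP2R2A, a regulatory subunit of the phosphatase, had 26.6 and 13.5 RPKM in low-performing pools 1 and 2, against 33.1, 44.3 and 41.4 RPKM in high-performing pools 1, 2 and 3, a log2 fold change of -1.01 ± 0.27 (SE; limma, adjusted p = 0.0829). ARPP19, the small protein through which Greatwall inhibits the phosphatase, stood at 0.43 ± 0.14 (SE; limma, adjusted p = 0.0953).

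The remaining lists were mixed. The 9 other cyclins tested had a median of -0.07, against 0.0030 when low-performing pool 2 was left out and -0.14 when pool 1 was, with CCNI lowest at -0.92 ± 0.25 (SE; limma, adjusted p = 0.0829) and CCNF highest at 0.38 ± 0.18 (SE; limma, adjusted p = 0.176), or 0.65 after correction for gene length. CCND1 and CCND2, cyclins of growth-factor-driven cell cycles, were under the filter, at no more than 0.26 RPKM and 0.541 RPKM in any pool. CDK inhibitors had a median of 0.04 over 5 genes, against -0.14 when low-performing pool 2 was left out, 0.16 when pool 1 was, and -0.04 after correction for gene length. CDKN1B, the inhibitor p27, had 6.73 and 2.76 RPKM in low-performing pools 1 and 2, against 7.78, 12.9 and 11.7 RPKM in high-performing pools 1, 2 and 3, a log2 fold change of -1.103 ± 0.32 (SE; limma, adjusted p = 0.0845). CDKN2D stood at 0.50 ± 0.17 (SE; limma, adjusted p = 0.102).

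WEE2, PKMYT1, CDC25A and CDC25B, the inhibitory kinases and activating phosphatases beside WEE1 and CDC25C, had a median of -0.35, against -0.14 when low-performing pool 2 was left out, -0.56 when pool 1 was and -0.14 after correction for gene length, where 1 of the 4 stood above 0. Genes of cyclin mRNA translation and meiotic arrest had a median of -0.30 over 6 genes, against -0.10 when low-performing pool 2 was left out, -0.49 when pool 1 was and -0.19 after correction for gene length. Among them PRKACA, the catalytic subunit of protein kinase A, was lowest at -1.05 ± 0.27 (SE; limma, adjusted p = 0.0829). FBXO5, an inhibitor of cyclin destruction, was highest at 0.09 ± 0.13 (SE; limma, adjusted p = 0.656) and turned to -0.11 with quantile normalization and -0.064 after correction for gene length.

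**Figure D4:**
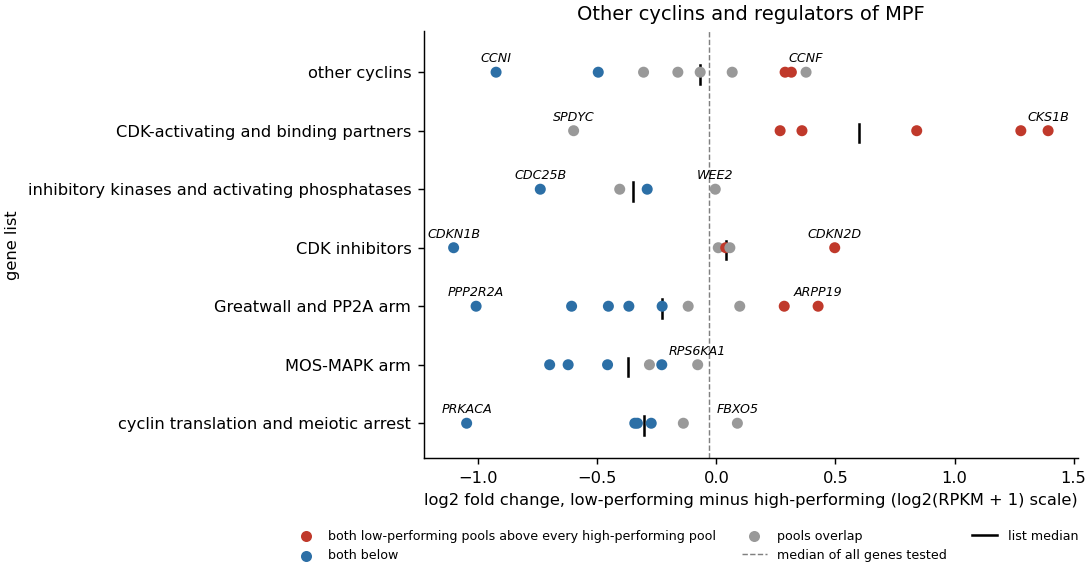
Log2 fold change (low-performing minus high-performing, log2(RPKM + 1) scale) of 45 further cyclins and MPF regulators in 7 lists, 1 point per gene, red where both low-performing pools lie above every high-performing pool, blue where both lie below, grey where pools overlap, with a black bar at each list's median and a dashed line at the median of all genes, -0.03. The CDK partners lie mostly right of the line, with CKS1B at 1.39, and the 6 MAP kinase genes all left of it in this fit on all 5 pools with no correction for gene length.

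By the difference between pool profiles of log2(RPKM + 1), each centred on its own mean over the 5 pools, the genes most like CCNB1 among 11089 named genes were METTL21A, EDIL3 and PLIN3, at root mean square differences of 0.0111, 0.0131 and 0.0141. METTL21A, a lysine methyltransferase, had 8.69 and 8.66 RPKM in low-performing pools 1 and 2, against 8.92, 8.32 and 8.25 RPKM in high-performing pools 1, 2 and 3. Those most like CDK1 were EDEM2, AAR2 and CHEK2, at 0.0183, 0.0245 and 0.0289. This scale compresses the changes of weakly detected genes, and several of these genes were weakly detected. EDIL3 had 1.46 to 1.68 RPKM over the 5 pools, PLIN3 2.86 to 3.12, AAR2 3.43 to 4.59 and CHEK2 2.70 to 3.51.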

How the data were processed

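RNA from embryo pools was made into stranded mRNA libraries, per the labels' protocols. The submitters' processing notes name FastQC, featureCounts and edgeR with the ARS-UCD1.2 build. Aligner, versions and strand setting are not stated there. The authors deposited RPKM per pool, and RPKM times length in kilobases summed to 1000000 in each. All values came out as whole reads within 1e-06, which gave depths. Per gene the authors deposited, for their comparison, a log2 fold change, a mean log2 value, a likelihood ratio statistic (a score), a p-value and an FDR. A positive value there means higher in low-performing pools. Nothing used here describes the model.

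An intensity-trend fit with limma 3.58.1 in R 4.3.3 was made on log2(RPKM + 1) for 12448 genes with at least 1 RPKM in at least 2 pools, at a two-sided threshold of 0.05 after Benjamini-Hochberg adjustment. The procedure was tested on simulated counts with planted changes, drawn independently for each pool. They held no trend over gene length and no pool farther off than the others, so that test does not cover these features. Other settings tried were pseudocounts of 0.1 and 0.5, a fit with no filter, a mean of at least 5 RPKM, quantile and median-of-ratios scaling, removal of a loess trend over gene length (span 0.5), no trend, a robust prior, pool weights, limma voom on recovered reads, the replicate number as a block, and each pool left out.

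The members and lists were chosen with earlier results of these data known. Named genes were the 10 members, the highest and lowest gene of each list (except 1 gene that is not reported here), and the 3 genes most like CCNB1 and CDK1. CCNB3, CDC25A, CCND1, CCND2 and the markers were named beside them after their values were seen. CDKN2A and PPP2R2D were not matched and are not analysed here. Figures used Python 3.11.15 and matplotlib 3.10.9.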

Additional observations from a re-analysis of the deposited data

How the results depend on the processing

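The calls depended on which low-performing pool was used. With each pool left out in turn, limma called 0 to 5436 genes, and the 5436 came without low-performing pool 1, where the lone low-performing pool is assumed to vary like the others; limma without a filter called 36 genes, and the replicate block called 833. Over those omissions the log2 fold change ranged from 0.33 to 0.66 for CCNB2, from -0.51 to -0.26 for CCNA2, from -0.62 to -0.26 for CCNE1, from 0.25 to 0.71 for CCNE2 and from 0.54 to 0.81 for MOS, and these 5 passed only without low-performing pool 1, where 43.7% of all genes tested did. CCNB1 ranged from -0.0076 to 0.050 and CDK1 from -0.17 to 0.17. CCNB1 turned to -0.38 with quantile normalization, -0.13 with the length trend removed and -0.0017 with the replicate block. CDK1 turned to 0.031 with median-of-ratios scaling, 0.064 with the length trend removed and 0.052 with the replicate block. The CCNB1 to CDK1 log2 ratio ranged from -0.15 to 0.18 with a pool left out. CCNB2, CCNA2, CCNE1, CCNE2, CDK2, CDC25C and MOS kept their direction in every alternative in which they were fitted. The causes were not tested. CCNE2 is under the filter at a mean of 5 RPKM and has no value there.

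Nothing in the labels says that a shared replicate number marks a shared batch or day. The deviations of low-performing and high-performing pool 1 correlated across genes at -0.48 and those of pool 2 at -0.26, but with 2 low-performing pools their deviations mirror each other, so these values cannot show whether the numbers pair the pools. The block left 1 of 9 members at an unadjusted p under 0.05 in limma, against 18.8% of all genes tested, and high-performing pool 3 adds nothing to its differences. Read depth limits only WEE1, with 63 to 143 reads, and CCNE2, with 195 to 627.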
